A study of Mus musculus with 2 samples.

Results

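Skeletal muscle genes were examined in 2 liver RNA pools of mice, 1 pool per diet group and 1 array per pool. The set comprised 38 genes of the contractile apparatus, calcium handling and energy supply of striated muscle, taken as every probe set annotated to 1 of these symbols alone. All 38 genes had such a probe set, 62 probe sets in all, out of 18193 genes with a probe set annotated to a single symbol. They were sorted by textbook knowledge into 13 fast-fibre genes, 9 slow-fibre or cardiac genes and 16 pan-muscle genes. The genes were chosen by the signal differences of muscle transcripts between these same arrays, so their differences are given as a description and support nothing further.

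Both groups were male C57Bl/6J mice, aged 9 weeks before acclimatisation, in a feeding experiment of 112 days on a diet depleted of n-3 polyunsaturated fatty acids by the use of sunflower oil. During the final 10 days the DEF/FOS mice stayed on this diet, at an n-6/n-3 ratio of 127.2, with 0.25 g per day of the fermentable fibre FOS (fructooligosaccharides) in the drinking water. The DEF/CT mice instead received the soybean oil control diet, with a ratio of 6.9. The treatment protocol lists 8 mice in each of these groups, whereas the extraction protocol gives 4 to 8 mice per group for the liver RNA, which was pooled in equal amounts, so the size of each pool is not settled and the number of mice behind a signal is not known. Fibre and oil differed together between the pools and cannot be told apart. Each pool is 1 array, so differences carry no test and no error. Mice given only the depleted or only the control diet were not analysed here.

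Striated muscle contracts when myosin of the thick filament pulls on actin of the thin filament, after calcium binds troponin C and moves tropomyosin. Most of these proteins come in versions encoded by separate genes. Fast fibres use largely their own myosin chains, troponins and calcium pump. Slow fibres and heart share several of theirs, among them Myh7 and Tnnc1. Hepatocytes do not build sarcomeres, although liver contains smooth muscle in its vessels. In bulk RNA, fewer cells of a type and less RNA per cell cannot be told apart.

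The labelled tissue was checked first. Alb, which encodes albumin of the blood plasma, had signals of 11023 with DEF/FOS and 11303 with DEF/CT. All 10 measured hepatocyte markers of 12 listed were above the floor in both pools, and their median log2 difference, DEF/CT minus DEF/FOS as throughout, was 0.02. The floor is a signal of 19.4, the median over probe sets, below which signals were given no order. The median signal over all probe sets other than controls was 19.6 for DEF/FOS and 21.9 for DEF/CT.

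The muscle genes were low in the DEF/FOS pool and mostly well above the floor in the DEF/CT pool. In the DEF/FOS pool their signals had a median of 8.83 and ran from 0.640 to 150.2, and 12 of the 38 genes reached the floor. In the DEF/CT pool the median was 81.7, the range 3.99 to 677, and 34 genes reached the floor. The other 4, Tnni1, Actc1, Mybph and Pgam2, lay below it in both pools and have no fold.

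**Figure D1:**
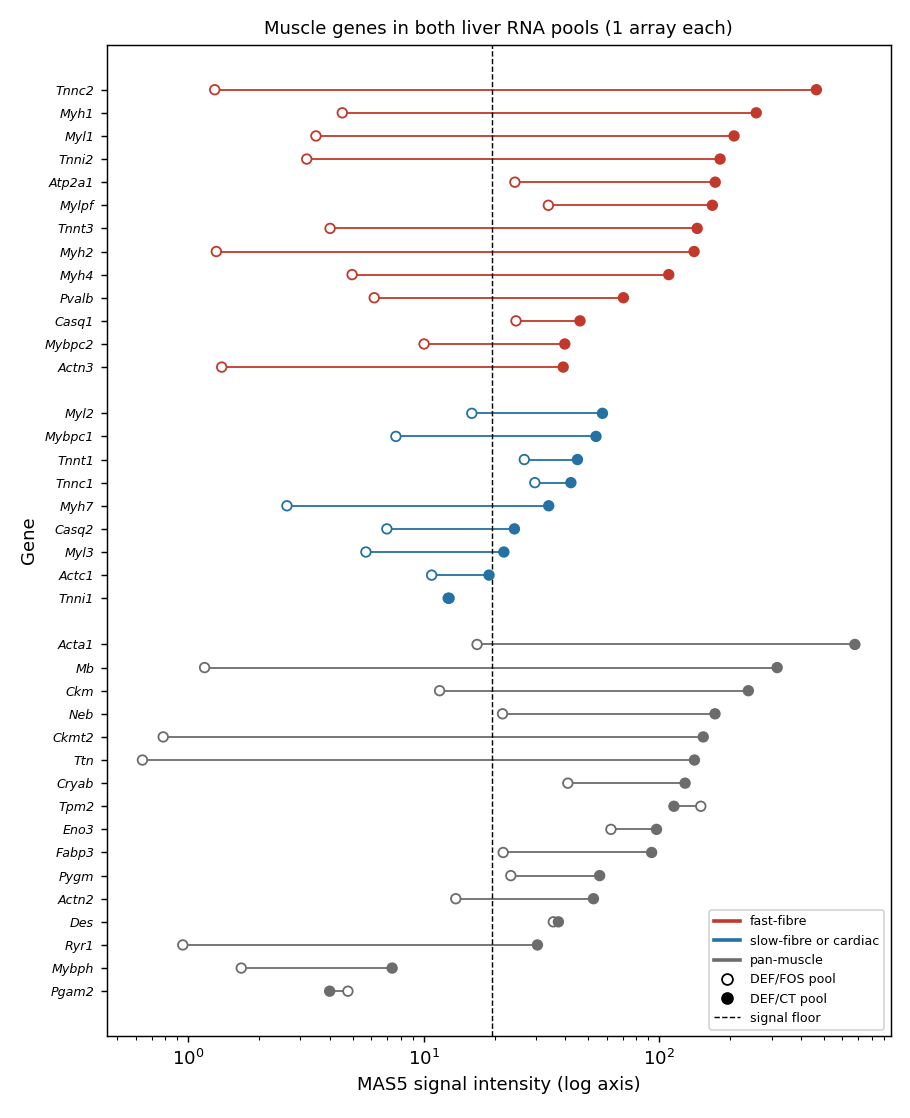
Signals of the 38 muscle genes in the DEF/FOS pool (open circles) and the DEF/CT pool (filled circles) on a log axis, 1 array each, with the floor of 19.4 as a dashed line. Each gene is shown by its probe set of highest arithmetic mean signal, and the filled circle lies to the right of the floor for 34 genes.

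With a floor on the mean log2 signal of both pools, 25 members were retained. Of these, 19 were at least 2-fold higher in the DEF/CT pool and 0 at least 2-fold lower, where the shares among 11163 genes were 2.19% higher and 1.74% lower by that size. In 12 of the 25 the DEF/FOS value was under the floor, so they were retained through the pool in which they were high. The same filter dropped Mb, Ckmt2 and Myh2, whose DEF/FOS signals near 1 pulled the mean down although their DEF/CT signals ran from 141 to 317. It also dropped Ttn, whose probe set of highest mean log2 signal had 15.7 with DEF/FOS and 15.5 with DEF/CT. Another Ttn probe set, at 0.640 and 141, has the highest arithmetic mean and stands for the gene in the rule below. A second rule, chosen after the data had been seen, therefore kept a gene where either pool reached the floor and set lower signals to the floor. It retained 34 members, of which 23 were at least 2-fold higher in the DEF/CT pool and 0 lower, where 1.69% of 12278 genes were higher and 1.36% lower. Of the 34, 22 were below the floor in the DEF/FOS pool and could not come out lower in the DEF/CT pool. The median log2 difference of the 34 was 1.74, against 0.01 over all genes retained. The folds below follow this rule, and "at least" marks a fold against the floor. Such a bound cannot exceed the DEF/CT signal divided by the floor, so bounds of different probe sets give no order of the true differences. A bound under 2 does not show that a gene was less than 2-fold apart, and counts at 2-fold by this rule are minimum counts. Medians of the muscle gene lists by this rule include such bounds, so they are minimum values and give no order of the classes. Class medians with the mean floor and signals as deposited use some DEF/FOS signals below the floor, so they give no order either.

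**Figure D2:**
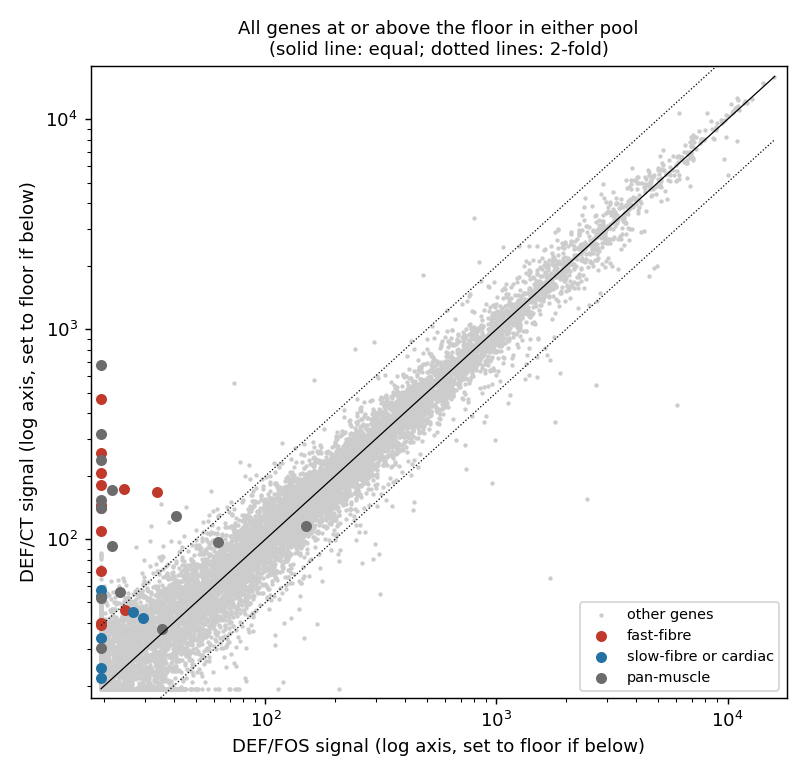
Signal of every gene retained by the second rule in the DEF/FOS pool (x axis) against the DEF/CT pool (y axis), both on log axes and with signals below 19.4 set to that floor. Members are coloured by class, the solid line marks equal signals and the dotted lines 2-fold. Of the 34 members drawn, 22 stand on the left edge, where the DEF/FOS signal was below the floor, and Tpm2 lies under the solid line.

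Sequence upstream of 6 members is shown because muscle promoters share short motifs. RefSeq promoter sequences of the assembly GRCm38.p6 matched 33 of the 38 members; Actn3, Cryab, Neb, Tnni2 and Tnnt3 had no entry. The 250 bases before the annotated start are given for skeletal actin (Acta1, chr8:123894776-123895025, minus strand), muscle creatine kinase (Ckm, chr7:19410844-19411093, plus strand), the fast myosin heavy chain Myh4 (chr11:67237562-67237811, plus strand), the fast and the slow troponin C, Tnnc2 (chr2:164779735-164779984, minus strand) and Tnnc1 (chr14:31208062-31208311, plus strand), and the slow heavy chain Myh7 (chr14:54994550-54994799, minus strand, the second of its 2 listed starts). Capitals mark the E-boxes CAGCTG and CACCTG, the CArG box, the MEF2 motif and TATAAA, each searched on both strands.
Acta1: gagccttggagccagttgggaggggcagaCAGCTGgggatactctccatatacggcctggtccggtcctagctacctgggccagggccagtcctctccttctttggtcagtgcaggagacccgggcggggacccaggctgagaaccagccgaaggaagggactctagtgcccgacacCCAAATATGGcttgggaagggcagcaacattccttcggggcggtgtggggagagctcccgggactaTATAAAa
Ckm: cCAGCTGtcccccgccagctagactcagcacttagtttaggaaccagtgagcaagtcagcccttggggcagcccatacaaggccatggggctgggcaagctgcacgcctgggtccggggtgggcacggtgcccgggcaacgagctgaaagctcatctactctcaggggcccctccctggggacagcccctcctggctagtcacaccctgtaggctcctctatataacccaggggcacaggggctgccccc
Myh4: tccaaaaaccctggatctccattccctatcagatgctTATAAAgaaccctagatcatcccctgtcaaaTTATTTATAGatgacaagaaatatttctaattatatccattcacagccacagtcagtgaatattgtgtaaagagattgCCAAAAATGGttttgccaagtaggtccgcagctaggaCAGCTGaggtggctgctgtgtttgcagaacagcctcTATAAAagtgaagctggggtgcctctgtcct
Tnnc2: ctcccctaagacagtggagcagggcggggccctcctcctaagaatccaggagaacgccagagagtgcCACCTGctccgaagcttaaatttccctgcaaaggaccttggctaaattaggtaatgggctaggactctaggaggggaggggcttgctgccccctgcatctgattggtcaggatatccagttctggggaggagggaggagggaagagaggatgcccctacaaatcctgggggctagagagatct
Tnnc1: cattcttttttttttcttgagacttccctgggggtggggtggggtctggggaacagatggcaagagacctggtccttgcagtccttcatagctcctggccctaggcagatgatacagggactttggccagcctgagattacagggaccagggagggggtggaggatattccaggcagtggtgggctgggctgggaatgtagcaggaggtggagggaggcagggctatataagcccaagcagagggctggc
Myh7: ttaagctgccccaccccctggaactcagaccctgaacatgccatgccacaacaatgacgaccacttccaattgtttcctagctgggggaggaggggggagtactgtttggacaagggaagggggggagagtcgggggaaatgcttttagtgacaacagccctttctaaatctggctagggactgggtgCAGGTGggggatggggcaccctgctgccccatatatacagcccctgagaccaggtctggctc
E-boxes are bound by MyoD and related muscle regulators, CArG boxes by serum response factor and MEF2 motifs by MEF2 factors. In Acta1 the CAGCTG lies 221 to 216 bases before the start and the CArG box 73 to 64 bases before it. Myh4 holds a CAGCTG at 67 to 62, a CArG box at 104 to 95 and a MEF2 motif at 182 to 173 bases before the start, the last overlapping a TATAAA on the other strand. Tnnc2 holds a single CACCTG at 183 to 178 bases before the start, and the capitals in Myh7 are CACCTG read on the other strand. Tnnc1 and the first listed start of Myh7, which is not printed, held none of the marked motifs.

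Counting a gene once where any listed start had a match, CAGCTG was present in 17 of the 33 members, or 51.5%, and in 14.7% of 27025 genes in the table. It was found in 5 of 10 fast-fibre, 3 of 9 slow-fibre or cardiac and 9 of 14 pan-muscle genes. CACCTG was present in 30.3% of members and 19.4% of all genes. The general E-box CANNTG, which contains both, was present in 87.9% and 69.3%. The MEF2 motif was present in 6 members, 18.2% against 3.42% of all genes, and the CArG box in 4, 12.1% against 1.62%. TATAAA, which can overlap the MEF2 motif, was present in 21.2% of members and 14.3% of all genes. These matches describe letters in a window of 250 bases and are no measure of binding. They use no array signal, and a link to the signal differences was not tested.

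Fast-fibre genes were higher in the DEF/CT pool in 13 of 13 cases, and 11 were at least 2-fold higher. Over all 12278 genes retained, 6303 were higher there and 1.69% were at least 2-fold higher. Their DEF/CT signals ran from 39.1 to 465 with a median of 145, and 10 of the 13 were below the floor in the DEF/FOS pool. These 10 were retained through the DEF/CT pool and could only come out higher there, so their direction is no result. The class had a median log2 difference of at least 2.81, as most of its values were bounds. It was 3.50 over the 11 genes retained by the mean floor with signals as deposited, of which 4 were above the floor in both pools.

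The troponin complex is the calcium switch of the thin filament. Tnnc2, the fast calcium-binding subunit troponin C, had a signal of 1.30 with DEF/FOS and 465 with DEF/CT, at least 23.7-fold higher. Tnni2, the fast inhibitory subunit troponin I, had 3.19 and 181 by 1 probe set and 30.7 and 153 by another, which is a measured 4.92-fold difference. Tnnt3, the fast tropomyosin-binding subunit troponin T, had 4.01 and 145, at least 7.38-fold higher. All 3 fast troponin genes were thus clear of the floor in 1 pool only, apart from the second probe set of Tnni2.

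Myosin heavy chains are the motors that set the speed of a fibre. Myh1, the chain of type 2X fibres, gave 4.52 with DEF/FOS and 258 with DEF/CT, at least 13.1-fold higher. Myh2, the chain of the fast oxidative type 2A fibres, had 1.32 and 141, at least 7.16-fold higher. Myh4, the chain of the fast glycolytic type 2B fibres, had 4.97 and 110, at least 5.59-fold higher. All 3 adult fast chains were therefore above the floor with DEF/CT and below it with DEF/FOS. They are near-identical copies of one another, so probe sets may read more than 1 of them. The 3 genes lie side by side on chromosome 11 in the order Myh3, Myh2, Myh1, Myh4, Myh8. Their neighbours Myh3, the embryonic chain, and Myh8, the perinatal chain, were below the floor in both pools, at 5.46 and 0.772 for Myh3 and 4.41 and 15.8 for Myh8.

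The light chains wrap the neck of the myosin head. Myl1, the fast essential light chain, had 3.49 with DEF/FOS and 208 with DEF/CT, at least 10.6-fold higher. Mylpf, the fast regulatory light chain, was above the floor in both pools at 33.8 and 168, a 4.92-fold difference. Mybpc2, the fast myosin-binding protein C, had 10.0 and 39.7 and was at least 2.02-fold higher, just inside the 2-fold limit. Actn3, the alpha-actinin of fast fibres that anchors thin filaments at the Z disc, had 1.39 and 39.1, and its bound of at least 1.99-fold lay just outside it.

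Calcium handling genes of fast fibres end each twitch by taking calcium back into its store. Atp2a1, the calcium pump SERCA1 that refills the sarcoplasmic reticulum, had 24.4 with DEF/FOS and 173 with DEF/CT, a measured 7.02-fold difference. Pvalb, the calcium buffer parvalbumin, had 6.17 and 70.5, at least 3.59-fold higher. Casq1, the calcium store protein calsequestrin of skeletal muscle, had 24.7 and 46.1, a 1.85-fold difference that stayed under 2-fold.

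Slow-fibre and cardiac genes were at least 2-fold higher in the DEF/CT pool in 2 of 9 cases and lower in 0. In that pool 7 of the 9 reached the floor. Their DEF/CT signals ran from 12.7 to 57.4 with a median of 34.0. The median log2 difference of the 7 was at least 0.74, as 5 of the values were bounds. With the mean floor only 4 genes were retained, 2 of them above the floor in both pools. Their median was 1.28 with signals as deposited, and 2 were at least 2-fold higher.

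Of the genes past 2-fold, Myl2, the regulatory light chain of slow fibres and of the heart's ventricle, had 16.0 with DEF/FOS and 57.4 with DEF/CT, at least 2.92-fold higher. Mybpc1, the slow-type myosin-binding protein C, had 7.63 and 53.9, at least 2.75-fold higher. It also occurs in fast fibres, so it marks slow fibres less strictly than the others. Its second probe set had 0.810 and 32.6, and its last was below the floor in both pools.

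Of the remaining slow genes, 2 had a measured fold, which was under 2, and 3 had only a bound, which does not settle whether they reached 2-fold; the others were below the floor in both pools. Myh7, the slow and ventricular myosin heavy chain, had 2.63 and 34.0 and was at least 1.73-fold higher in the DEF/CT pool. Tnnc1, troponin C of slow and cardiac muscle, was measured in both pools at 29.7 and 42.2, a 1.41-fold difference. Tnnt1, slow troponin T, was also measured in both, at 26.8 and 45.0, a 1.66-fold difference. Casq2, the cardiac calsequestrin, had 6.98 and 24.3, at least 1.24-fold higher, and Myl3, the essential light chain of slow and cardiac muscle, 5.69 and 21.9, at least 1.12-fold. Tnni1, slow troponin I, had 12.8 and 12.7, and Actc1, cardiac actin, 10.8 and 19.0, both below the floor.

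The 10 pairs of partner genes allow the same protein to be followed in its fast or skeletal and its slow or cardiac version. The fast or skeletal gene passed 2-fold in 8 of 10 pairs and its partner in 3. For troponin C the bound of Tnnc2, at least 23.7-fold, exceeded the measured 1.41-fold of Tnnc1, and for troponin T the bound of Tnnt3, at least 7.38-fold, exceeded the measured 1.66-fold of Tnnt1. In the other 8 pairs the slow or cardiac gene had only a bound or no fold, so the order within the pair is not settled. The larger printed value belonged to the slow or pan-muscle partner for Mybpc1 over Mybpc2 and for Actn2, alpha-actinin of all striated fibres, over Actn3. Probe sets differ in brightness and in the signal they give without muscle RNA, and with 1 array per pool the difference between the classes was not tested.

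**Figure D3:**
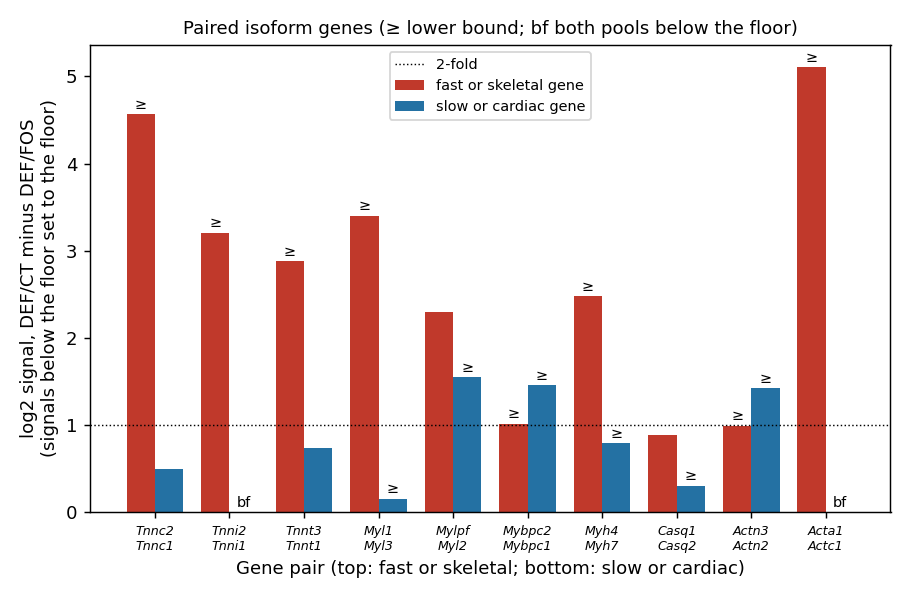
Log2 difference, DEF/CT minus DEF/FOS, of 10 gene pairs with signals below 19.4 set to that floor (red bars, fast or skeletal gene; blue bars, slow, cardiac or, for Actn2, pan-striated gene). The sign ≥ marks a lower bound, bf marks genes below the floor in both pools, which have no bar, and the dotted line is 2-fold. The fast or skeletal gene passes the dotted line in 8 pairs.

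Pan-muscle genes serve fibres of every type. Of 16 genes, 14 reached the floor in the DEF/CT pool, 10 were at least 2-fold higher there and 0 at least 2-fold lower. The median log2 difference of the 14 was at least 1.86, as 7 of the values were bounds. With the mean floor, 10 were retained and 7 were at least 2-fold higher, with a median of 1.78.

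Structural genes of this class build the filaments and hold them in register. Acta1, the actin of skeletal muscle thin filaments, had 16.9 with DEF/FOS and 677 with DEF/CT, at least 34.5-fold higher. Neb, the giant ruler of the thin filament nebulin, was above the floor in both pools at 21.6 and 173, a 7.90-fold difference. Ttn, the giant spring titin, had 0.640 and 141, at least 7.19-fold higher by its brightest probe set. Actn2 had 13.7 and 52.6, at least 2.68-fold higher. Ryr1, the calcium release channel of skeletal muscle, had 0.950 and 30.4, at least 1.55-fold higher.

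Some pan-muscle genes are shared with other tissues. Des, the intermediate filament desmin of all muscle types, smooth muscle included, had 35.5 with DEF/FOS and 37.3 with DEF/CT. Tpm2, beta-tropomyosin, which smooth muscle also expresses, had 150.2 and 115 by its brightest probe set, a log2 difference of -0.39. Its other probe sets were higher in the DEF/CT pool, the largest at 9.67 and 58.7, so the probe sets of Tpm2 disagreed. Cryab, a small heat shock protein that protects desmin and other filaments, had 40.9 and 129, a 3.11-fold difference. Mybph, the myosin-binding protein H, had 1.68 and 7.35, both below the floor.

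Energy supply genes buffer ATP, carry oxygen and fatty acids, or break down glucose and glycogen. Mb, myoglobin, the oxygen store of oxidative fibres and heart, had 1.18 with DEF/FOS and 317 with DEF/CT, at least 16.1-fold higher. Ckmt2, the mitochondrial creatine kinase of striated muscle, had 0.784 and 154, at least 7.83-fold higher. Fabp3, the fatty acid carrier of heart and oxidative fibres, had 21.8 and 92.9, a 4.22-fold difference, while its other probe set had 25.4 and 14.0. Ckm, the cytosolic creatine kinase that buffers ATP in all fibres, had 11.7 and 239, at least 12.2-fold higher.

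Of the 3 genes of glycogen and glucose breakdown, 1 was at least 2-fold higher. Pygm, muscle glycogen phosphorylase, had 23.4 and 55.9, a 2.36-fold difference. Eno3, muscle enolase, had 62.4 and 97.4, a 1.55-fold difference, and is also expressed in liver. Pgam2, muscle phosphoglycerate mutase, had 4.77 and 3.99, both below the floor. In total 5 of the 7 energy supply genes were at least 2-fold higher in the DEF/CT pool. The corresponding counts were 5 of 10 thin filament genes, 3 of 4 myosin heavy chains, 3 of 4 light chains, 2 of 3 myosin-binding proteins, 2 of 5 calcium handling genes and 3 of 5 genes of the Z disc, titin and intermediate filaments. Only 6 energy supply genes, 8 thin filament genes and 2 myosin-binding proteins reached the floor in either pool, and the rest of these have no fold. Over all 12278 genes retained, 1.69% were at least 2-fold higher.

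Of the 38 genes, 25 had a single probe set and 13 had several. In 6 of the 13, Tnni2, Ttn, Tpm2, Des, Cryab and Fabp3, the probe sets disagreed in sign. For Tnni2, Ttn, Des and Cryab this came only from probe sets below the floor in both pools, where signals were given no order. Among the 43 member probe sets that reached the floor in either pool, 41 had the higher signal in the DEF/CT pool, and the exceptions were 1 probe set each of Tpm2 and Fabp3. Among the 19 below the floor in both pools, 12 were higher and 7 lower in the DEF/CT pool. Without any floor, 53 of the 62 member probe sets and 54.2% of all 34945 probe sets with a single symbol were higher there. With signals as deposited Ttn had the widest spread, from -3.01 to 7.77 on the log2 scale over 6 probe sets, but both ends rest on signals below the floor. Its 2 probe sets above the floor had 141 and 85.9 in the DEF/CT pool and under 1 in the DEF/FOS pool, and the other 4 were below the floor in both. For Myh1, 2 probe sets gave 258 and 255 in the DEF/CT pool, and the other 5.23.

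**Figure D4:**
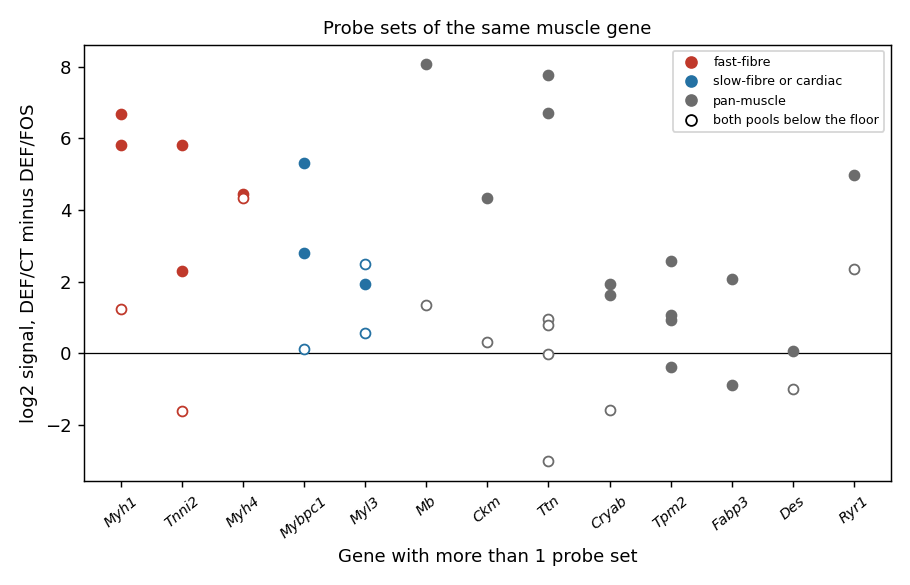
Log2 difference, DEF/CT minus DEF/FOS, of each probe set of the 13 muscle genes with more than 1 probe set, with signals as deposited. Open circles are probe sets below the floor of 19.4 in both pools, whose differences have no order. Filled circles lie above 0 except for 1 probe set each of Tpm2 and Fabp3.

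The spread between probe sets of the same gene gives a scale for the technical error. Over 4885 genes with several probe sets above the mean floor its SD was 0.38 on the log2 scale, and it was 0.57 for genes with mean signals of 19.4 to 37.4. It leaves out the spread between mice and between arrays. The differences of Tnnc1, at 0.49, of Tnnt1, at 0.74, and of the fast-fibre gene Casq1, at 0.89, are of the same order as this spread. So is that of Eno3, at 0.63, where the SD was 0.45 for mean signals of 37.4 to 84.3.

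Other genes of skeletal muscle that were not members were examined from a list of 45, of which 41 had a named probe set. In 17 of these both pools lay below the floor. Of the other 24, 23 were higher in the DEF/CT pool, 5 at least 2-fold, and 1 was at least 2-fold lower. Over all 12278 genes retained, 6303 were higher, 1.69% at least 2-fold, and 1.36% were at least 2-fold lower. In 15 of the 24 the DEF/FOS signal was below the floor, so these could only come out higher in the DEF/CT pool. The median log2 difference of the 24 was at least 0.59, as it includes such bounds. Myot, the Z disc protein myotilin, had 0.673 with DEF/FOS and 83.9 with DEF/CT, at least 4.27-fold higher. Myoz1, the Z disc protein of fast fibres also called calsarcin-2, had 19.6 and 69.3, a 3.50-fold difference. Cox6a2, a muscle form of a respiratory chain subunit, had 31.5 and 97.9, a 3.08-fold difference. Another such subunit, Cox8b, had 1.43 and 46.4, at least 2.36-fold higher, and Tcap, the titin cap protein, had 22.4 and 53.2, a 2.35-fold difference. The gene in the opposite direction was Art1, a mono-ADP-ribosyltransferase, at 56.8 and 27.6. Capn3, Pfkm, Eef1a2, Cox7a1 and Hjv, the last also a hepatocyte gene, had values above the floor in both pools and differed by 0.42 to 0.87 on the log2 scale. Second probe sets of Capn3, at 25.1 and 21.1, and of Hjv, at 243 and 253, were also above the floor in both pools. They differed by -0.27 and 0.04, so the probe sets of these genes disagreed.

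Markers of other cell types that muscle genes could come with were compared in the same way, and their part in the differences above was not tested. Of 12 genes listed as heart muscle markers, 8 were below the floor in both pools, among them Myh6, Tnni3, Tnnt2, Mybpc3 and Myl7. Of the other 4, 0 had a value or bound of 2-fold. Nppb, a natriuretic peptide of the heart, had 13.9 and 28.8, at least 1.47-fold higher, and with the mean floor and signals as deposited it was counted as at least 2-fold higher, at 1.03 on the log2 scale. Pln and Nkx2-5 were measured in both pools and were under 2-fold apart. The summed signals of the 12, like the sums below, include signals under the floor, and were 139 with DEF/FOS and 185 with DEF/CT. All 8 genes of developing or regenerating muscle, Myod1, Myog and Pax7 among them, were below the floor in both pools, with sums of 61.7 and 55.2.

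Smooth muscle markers went both ways. Of 10 markers 6 reached the floor, 2 of them higher and 4 lower in the DEF/CT pool, and 0 had a value or bound of 2-fold. Mylk, the kinase of the smooth muscle myosin light chain, was higher at 314 and 415, and Synpo2, an actin-binding protein, at 2.36 and 26.9, at least 1.37-fold. Smtn, the filament protein smoothelin, was lower at 42.9 and 23.3, a 1.86-fold difference. Acta2, smooth muscle actin, had 147 and 139, Tagln 74.0 and 59.0, and Myh11, the smooth muscle myosin heavy chain, was below the floor in both. The sums of the list were 634 and 697. Of 7 measured adipocyte markers 4 reached the floor and 0 had a value or bound of 2-fold, with sums of 278 and 286. In the DEF/CT pool 3 of these 4 were higher, among them Fabp4, at 185 and 205, and Plin4, at 30.7 and 38.8. Retn, the exception, had 21.7 and 5.89 and was at least 1.13-fold lower. Lep, Ucp1 and Cidea were below the floor in both pools. Of 9 tendon and connective tissue markers 4 reached the floor and 0 had a value or bound of 2-fold, with sums of 331 and 401. Col1a1, at 3.30 and 21.3, and Scx, at 10.0 and 19.8, had only bounds, at least 1.08-fold and at least 1.01-fold higher, and Tnmd, the tendon marker tenomodulin, was below the floor in both pools. Of 5 measured nerve markers 3 reached the floor and 0 had a value or bound of 2-fold, with sums of 84.5 and 130. Nefl, a neurofilament chain, had 2.95 and 22.1, at least 1.13-fold higher. Of 6 markers of mesothelium and of bile duct or gallbladder epithelium 3 reached the floor and all 3 were lower in the DEF/CT pool, with sums of 104 and 94.1. Epcam was measured in both pools at 37.8 and 33.6, while Krt19, at 26.1 and 17.2, and Krt7, at 20.0 and 12.3, had only bounds, at least 1.36-fold and at least 1.04-fold lower.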

How the data were processed

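The authors deposited linear MAS5 intensities, 1 per probe set and pool; MAS5 and GCOS are named in the submitters' processing notes, and other steps and versions are not given in the sources used here. The trimmed mean was 100.001 in both arrays. RNA was pooled before labelling, per the labels' protocols. Of 45101 probe sets, 64 are controls, 34945 carry 1 gene symbol, 932 several and 9160 none; symbols were matched by Entrez identifier to RefSeq genes of GRCm38.p6 for 34741 probe sets, and 0 were changed.

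Log2 signals of DEF/FOS were subtracted from those of DEF/CT and centred on their median over probe sets above the floor, which was 0.01. By the design, the floor of 19.4 was applied to the mean log2 signal, the probe set of highest mean log2 signal stood for a gene, and signals below the floor counted as the floor where a fold is printed. The second rule takes the probe set of highest arithmetic mean signal. Members were all eligible to be named, with up to 10 genes of the other skeletal muscle list and up to 4 of each marker list. The members and lists were chosen with earlier results of these data known, and genes of those lists that the second rule added, Acta2, and markers below the floor in both pools were named after their values were seen. There is no depth to an array; the number of arrays, 1 per pool, limits the precision. Computation used Python 3.11.15, numpy 2.4.6 and pandas 2.3.3. The procedure with the mean floor was tested on simulated data, with differences placed only in genes well above the floor. The second rule was not simulated. Alternatives were other floors, centring, quantile normalization, an offset, the median over probe sets and removal of probe sets that may match several transcripts.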

Additional observations from a re-analysis of the deposited data

How the results depend on the processing

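Changes of 1.5 times in a count, or of more than the 0.38 SD between probe sets in a median, are given here. Counts are genes at least 2-fold higher in the DEF/CT pool. The main counts were 19 members (10 fast, 2 slow or cardiac, 7 pan-muscle), 3 other muscle genes and 245 genes in all, and the main medians 3.50, 1.28 and 1.78 for the fast, slow or cardiac and pan-muscle classes. These medians use deposited signals, some of them below the floor in each class, and give no order of the classes. Without a floor the counts were 5 slow or cardiac, 11 pan-muscle, 20 other muscle and 2322 in all, and the medians 4.40 for fast and 1.73 for slow or cardiac. At the 75th percentile 2 members were left, both pan-muscle: 1 was counted (1 pan-muscle), with a median of 2.48, against 0 other muscle genes and 28 in all, and no fast or slow value could be given. With low signals raised to the floor the fast median was 2.48. With the median over probe sets 1 slow or cardiac and 1 other muscle gene were counted, the slow median was 0.74, Tpm2 turned from -0.39 to 1.00 on the log2 scale, and Fabp3 went from 2.08 to 0.60, below 2-fold. An offset of 32 gave 1 slow or cardiac, 1 other muscle and 40 genes in all, with medians of 1.85, 0.63 and 1.00; Mybpc2, Myl2, Actn2 and Pygm were then at 0.76, 0.89, 0.88 and 0.65, below 2-fold. Without probe sets ending in _s_at or _x_at the fast median was 4.45. At 1.5-fold, 6 other muscle genes and 873 genes in all were counted. The second rule, added after the data had been seen, gave medians of 2.81 and 0.74 for fast and slow or cardiac and 5 other muscle genes. Quantile normalization, no centring and centring on the hybridisation spikes moved none of these by that much. No paired analysis was possible because each group has 1 array.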

Other observations

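All 5 measured exocrine pancreas markers of 7 listed were above the floor in both pools and higher in the DEF/CT pool, with a median log2 difference of 0.47. Cela1, a pancreatic elastase, had 428 with DEF/FOS and 878 with DEF/CT, a 2.03-fold difference. The carboxypeptidases Cpa1 and Cpb1 had 84.2 and 119, and 87.9 and 123. Cel, a lipase of pancreatic juice, had 70.1 and 93.3, and Ctrb1, a chymotrypsinogen, 101.0 and 106.9. The summed signals were 771 and 1320. With 1 array per pool these differences were not tested.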
